A study of Mus musculus with 3 samples.

Results

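*Apoe*, its neighbour in the genome *Apoc1*, and 5 receptors that bind apolipoprotein E or move it inside cells (*Lrp1*, *Vldlr*, *Lrp8*, *Scarb1* and *Sort1*) were followed across the cells of the aorta. These 7 of the 32285 genes in the count tables were taken by their symbols, and all 7 had at least 1 unique molecular identifier (UMI, a tag that counts 1 captured RNA molecule) in each library. The cells came from male gene replacement mice on a C57BL/6J background that carry human *APOE2*, *APOE3* or *APOE4* at the locus of the mouse *Apoe* gene, so all 3 groups lack the mouse gene. From 12 weeks of age the mice of all 3 genotypes ate a Western diet (42% fat, 0.2% cholesterol) for 16 weeks. Cells from whole aortas, arch to iliac bifurcation, were pooled by genotype (6 mice with *APOE2*, 5 with *APOE3*, 7 with *APOE4*), giving 1 droplet library per genotype. There are therefore no replicates, genotype and library cannot be told apart, and no difference between genotypes was tested: intervals in parentheses are 95% intervals that cover counting error only.

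Apolipoprotein E coats remnant lipoproteins and high-density lipoproteins and is made by hepatocytes, macrophages and several cell types of the vessel wall. It hands lipid to cells by binding receptors of the lipoprotein receptor family, of which LRP1, VLDLR and LRP8 are members, together with heparan sulfate proteoglycans. Scavenger receptor class B type I (*Scarb1*) takes up cholesteryl ester from high-density lipoproteins, and sortilin (*Sort1*) sorts cargo, apolipoproteins included, between the Golgi apparatus and endosomes. Apolipoprotein C1 is a small exchangeable protein that hinders uptake of remnants. The 3 human isoforms differ in single amino acids and in how they bind receptors and lipid.

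In the mouse genome (GRCm38, GENCODE vM21) *Apoe* (ENSMUSG00000002985) spans chr7:19696109-19699188 on the minus strand, and *Apoc1* (ENSMUSG00000040564) lies downstream of it at chr7:19689481-19692660 on the same strand, with 3448 bases between. *Lrp1* (ENSMUSG00000040249) spans chr10:127538161-127621148 (minus strand), *Vldlr* (ENSMUSG00000024924) chr19:27216484-27254231 (plus strand) and *Lrp8* (ENSMUSG00000028613) chr4:107802261-107876840 (plus strand). *Scarb1* (ENSMUSG00000037936) spans chr5:125277087-125341094 (minus strand) and *Sort1* (ENSMUSG00000068747) chr3:108284082-108361511 (plus strand). RefSeq start sites of 4 of the 7 genes could be matched. The 250 bases before the start are shown for *Apoe*, *Lrp1* and *Vldlr*, because these 3 genes were each highest in a different cell class; *Vldlr* has 2 RefSeq starts, and both are given. *Apoe* has 3, of which 2 lie inside the gene; the window of the outermost start and the one inner window that held a motif are given. The bases come from RefSeq on GRCm38.p6, read 5′ to 3′ along the gene's strand, with capitals marking a match on either strand to a GC box, a TATA box or a CCAAT box. The GC box was searched as the letters GGGCGG. The TATA box was searched as TATAAA, and the third motif as spelled in its name.
Apoe, chr7:19699189-19699438, minus strand: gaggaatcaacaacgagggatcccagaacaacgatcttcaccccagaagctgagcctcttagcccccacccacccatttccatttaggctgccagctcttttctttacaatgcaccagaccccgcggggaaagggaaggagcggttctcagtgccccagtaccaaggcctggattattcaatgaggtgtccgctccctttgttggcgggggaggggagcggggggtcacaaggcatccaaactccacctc
Apoe, chr7:19698622-19698871, minus strand: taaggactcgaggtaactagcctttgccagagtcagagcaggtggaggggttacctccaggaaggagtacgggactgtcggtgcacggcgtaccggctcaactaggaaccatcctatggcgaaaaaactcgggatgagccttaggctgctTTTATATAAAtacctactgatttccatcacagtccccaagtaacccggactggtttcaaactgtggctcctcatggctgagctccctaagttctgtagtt
Lrp1, chr10:127621149-127621398, minus strand: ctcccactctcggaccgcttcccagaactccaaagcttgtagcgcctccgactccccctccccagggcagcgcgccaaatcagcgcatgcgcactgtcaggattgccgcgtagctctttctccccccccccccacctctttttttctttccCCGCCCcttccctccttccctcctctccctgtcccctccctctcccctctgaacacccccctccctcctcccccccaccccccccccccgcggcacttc
Vldlr, chr19:27216234-27216483, plus strand: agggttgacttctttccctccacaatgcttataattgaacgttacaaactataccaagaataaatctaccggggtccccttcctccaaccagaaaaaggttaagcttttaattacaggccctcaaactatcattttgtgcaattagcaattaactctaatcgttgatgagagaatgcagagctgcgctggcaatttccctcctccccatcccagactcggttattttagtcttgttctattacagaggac
Vldlr, chr19:27216770-27217019, plus strand: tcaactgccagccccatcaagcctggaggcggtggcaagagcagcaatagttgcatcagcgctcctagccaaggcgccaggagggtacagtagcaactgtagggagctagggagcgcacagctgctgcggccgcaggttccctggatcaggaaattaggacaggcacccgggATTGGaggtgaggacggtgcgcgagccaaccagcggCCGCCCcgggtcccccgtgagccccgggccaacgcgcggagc
The window before the outermost *Apoe* start, the third *Apoe* window (not shown) and the upstream *Vldlr* window held none of the 3 motifs. The inner *Apoe* window shown held 2 overlapping matches to the TATA box, 1 on each strand. The *Lrp1* window held a GC box, and the downstream *Vldlr* window a GC box and a CCAAT box. Of 32851 RefSeq promoter windows of the same length, 32.7% held a GC box, 12.4% a TATA box and 33.8% a CCAAT box, so these matches are common and are given as a description. The *Apoe* windows are those of the reference mouse, and how much of them the replacement locus keeps was not tested.

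Cells were kept if they had at least 200 genes and under 20% of UMIs from mitochondrial genes, which left 26757 of 28506 barcodes. The *APOE2*, *APOE3* and *APOE4* libraries held 11772, 6737 and 8248 cells with a median of 12047, 17618 and 13521.5 UMIs per cell, and 67 barcodes occurred in more than 1 library. Of 23 clusters, 17 were named from marker lists, among them 9 smooth muscle-like, 2 fibroblast-like, 1 macrophage-like and 1 endothelial-like; 16.1%, 21.1% and 10.9% of the cells in *APOE2*, *APOE3* and *APOE4* stayed unnamed. The 7 genes and a list of 52 lipoprotein pathway genes were kept out of the clustering, so no level of these genes was used to define a cluster. Marker genes and the other genes named below were not kept out. In the same order of libraries, smooth muscle-like cells numbered 7838, 4462 and 5796, fibroblast-like cells 1178, 657 and 970, macrophage-like cells 422, 117 and 131 and endothelial-like cells 155, 33 and 37. T lymphocyte-, B lymphocyte-, erythroid- and neutrophil-like cells fell under 30 in the *APOE3* library and are not compared between genotypes. Levels are counts per 1000000 UMIs (CPM): the UMIs of a gene in all cells of a class and library, divided by the UMIs of all genes in those cells. Where 3 values stand side by side without names, they belong to *APOE2*, *APOE3* and *APOE4*, in that order.

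The replaced gene was checked first. Over all cells, *Apoe* stood at 190.6 CPM in *APOE2*, 200.1 in *APOE3* and 180.5 in *APOE4*, from 32082, 25037 and 22551 UMIs. All 3 libraries thus held *Apoe* UMIs in number although the mice carry the human gene. The reads were aligned to the mouse genome, so these UMIs are the part of the human transcript that the mouse gene captured, or retained mouse sequence at the locus; the counts cannot tell the 3 alleles apart and do not check the labels. Whether the captured part differs between the alleles was not tested.

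Among the 4 classes compared, *Apoe* was highest in macrophage-like cells. Its level there was 542 (521 to 564) CPM with *APOE2*, 1061 (1004 to 1119.7) with *APOE3* and 651 (609.8 to 694) with *APOE4*. Fibroblast-like cells held 251 (243 to 259) CPM with *APOE2*, 522 (506 to 537) with *APOE3* and 339.8 (329 to 351) with *APOE4*. Smooth muscle-like cells held 168 (166 to 171) CPM with *APOE2*, 162 (160.0 to 165) with *APOE3* and 160.0 (158 to 162) with *APOE4*. In every library the order was thus macrophage-like, fibroblast-like, smooth muscle-like, and the ranges over libraries of these 3 classes did not overlap. Endothelial-like cells, at 250.5 (224 to 279), 221 (161 to 297) and 325 (249 to 418), overlapped the fibroblast-like range and lay above the smooth muscle-like range, although in *APOE3* the counting interval reached down to the smooth muscle-like level. The macrophage-like level was 4.07-fold the smooth muscle-like level as the median of the 3 libraries, a log2 ratio of 2.02 (range over libraries 1.69 to 2.71). Against fibroblast-like cells the median log2 ratio was 1.02 (range 0.94 to 1.11).

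Most *Apoe* molecules nevertheless lay in smooth muscle-like cells, the most numerous class, which held 64.6%, 62.7% and 72.8% of all *Apoe* UMIs in the 3 libraries. This was below their part of the UMIs of all genes, which was 73.1%, 77.2% and 82.2%. Fibroblast-like cells gave 11.4%, 17.6% and 16.3%, and macrophage-like cells, with 2.70%, 0.987% and 1.16% of all UMIs, gave 7.67%, 5.23% and 4.16%. The share of cells with an *Apoe* UMI followed the levels once depth was made equal. After each cell was thinned to 1000 UMIs, *Apoe* was found in 28.3% (24.0% to 32.9%), 46.2% (36.9% to 55.6%) and 33.1% (25.1% to 41.9%) of macrophage-like cells. In fibroblast-like cells the thinned share was 18.3% (16.2% to 20.7%), 32.6% (29.0% to 36.3%) and 25.4% (22.6% to 28.2%), and in smooth muscle-like cells 13.5% (12.8% to 14.3%), 13.9% (12.9% to 15.0%) and 14.4% (13.5% to 15.3%). The *APOE3* share was thus the highest in macrophage-like and fibroblast-like cells, but in macrophage-like cells its interval overlapped that of *APOE4*. The 3 smooth muscle-like intervals overlapped as well. Without thinning, the shares were 61.1%, 78.6% and 66.4% of macrophage-like and 69.0%, 73.1% and 71.7% of smooth muscle-like cells. The median smooth muscle-like cell had 13895, 20038 and 15506 UMIs, against 8380, 8563 and 9363 in macrophage-like cells. The deeper smooth muscle-like cells thus had the higher unthinned share in *APOE2* and *APOE4*, against the order of the levels. As a background, T lymphocyte-like cells showed a thinned share of 0.80%, 4.35% and 1.82%, and an unthinned one of 18.0%, 30.4% and 19.8% at a median of 5650, 8821 and 6555 UMIs per cell. Erythroid-like cells held 2, 3 and 0 *Apoe* UMIs in all, over 72, 5 and 30 cells. B lymphocyte-like cells, a further background, held 23, 1 and 67 *Apoe* UMIs over 32, 10 and 271 cells. These were 0.0717%, 0.00399% and 0.297% of *Apoe* UMIs, in cells with 0.132%, 0.0501% and 1.02% of all UMIs. At equal depth, the shares in the 3 classes above exceeded those of T lymphocyte-like cells, which should lack the gene. In *APOE3* that background rested on only 23 cells. The gap between smooth muscle-like and T lymphocyte-like cells was smaller by summed UMIs. T lymphocyte-like cells gave 0.277%, 0.156% and 0.315% of *Apoe* UMIs, in 0.857%, 0.344% and 0.966% of all UMIs. Part of the smooth muscle-like level may thus be background, and how much was not tested.

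**Figure D1:**
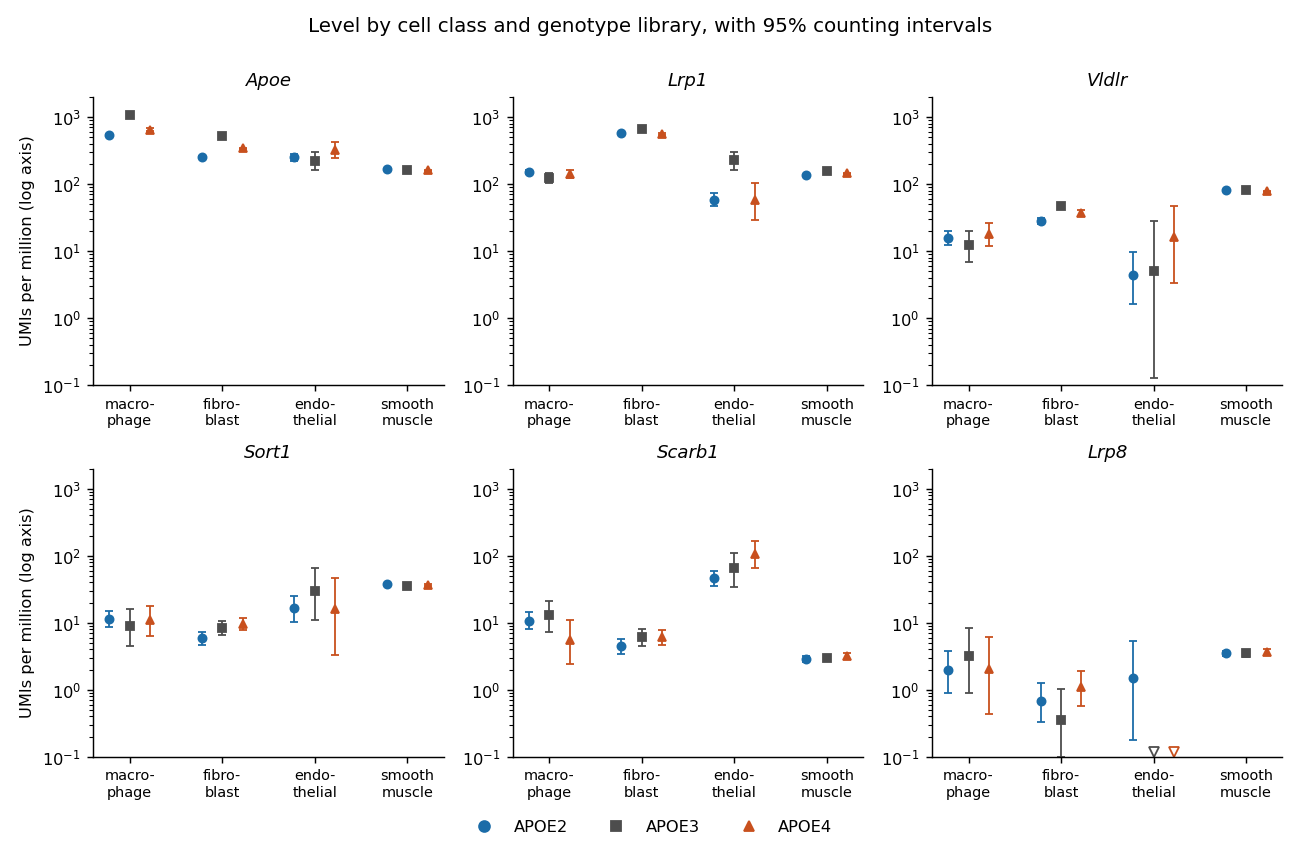
Level of 6 of the 7 genes (all but *Apoc1*) in CPM (log axis) by cell class, with 1 point per genotype library, bars for the 95% interval of counting error and open triangles for a count of 0. *Apoe* points are highest in macrophage-like cells (542 to 1061 CPM), *Lrp1* points in fibroblast-like cells (562 to 667 CPM), *Vldlr* and *Sort1* points in smooth muscle-like cells and *Scarb1* points in endothelial-like cells.

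**Figure D2:**
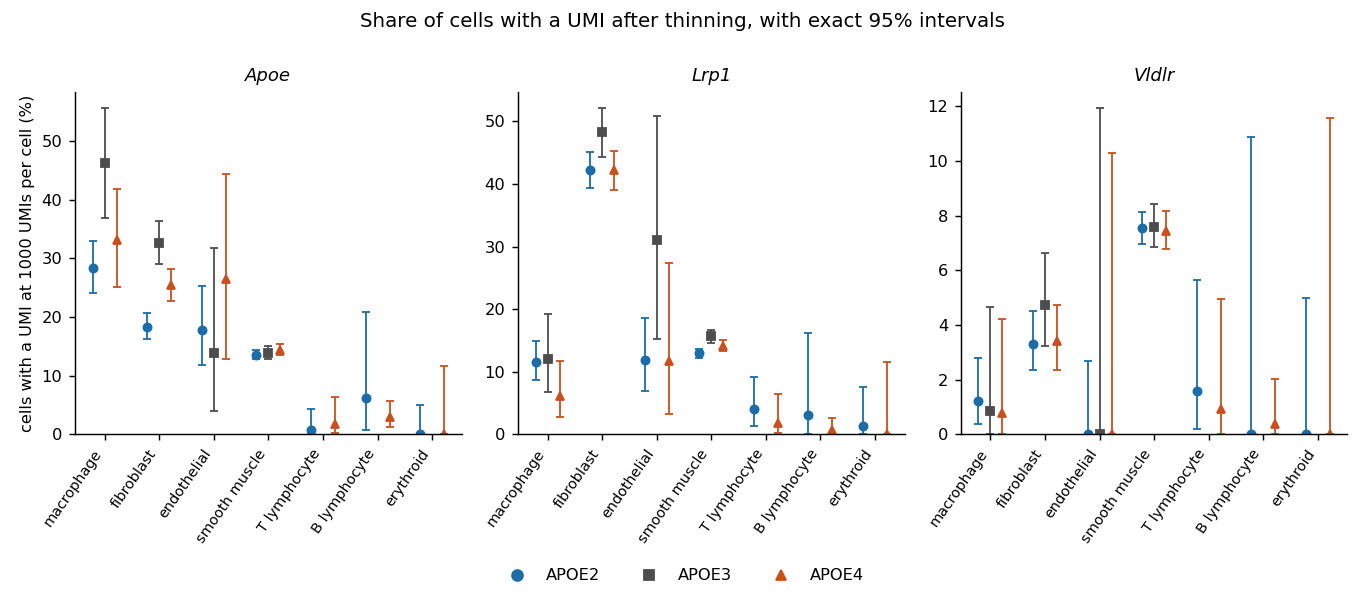
Percentage of cells with at least 1 UMI of a gene after thinning each cell to 1000 UMIs, by cell class and library, with 95% Clopper-Pearson intervals. For *Apoe* the *APOE3* point is the highest of the 3 libraries in macrophage-like (46.2%) and fibroblast-like cells (32.6%), whereas the 3 smooth muscle-like points lie between 13.5% and 14.4%.

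Between genotypes, the *Apoe* level in the *APOE3* library stood above the other two in macrophage-like and fibroblast-like cells, while smooth muscle-like cells differed little. In fibroblast-like cells *APOE2* stood to *APOE3* at a log2 ratio of -1.06 (-1.12 to -0.99). The ratio of *APOE4* to *APOE3* was -0.62 (-0.68 to -0.56), and that of *APOE4* to *APOE2* 0.44 (0.37 to 0.51). In macrophage-like cells the same ratios were -0.97 (-1.06 to -0.87), -0.70 (-0.83 to -0.58) and 0.26 (0.15 to 0.37), so the order was *APOE3*, *APOE4*, *APOE2* in both classes. In smooth muscle-like cells they were 0.05 (0.02 to 0.08), -0.02 (-0.05 to 0.01) and -0.07 (-0.10 to -0.04), differences so small that the sign of each changed under at least 1 other choice of cells or scaling. The 3 contrasts share libraries, so a single high or low library enters 2 of them.

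Markers of other classes were measured beside these ratios. All 10 smooth muscle markers were found in macrophage-like cells of each library, summing to 6684, 13917 and 10464 CPM, with the highest sum in the library with the highest *Apoe*. Most of these UMIs (92.5%, 95.8% and 94.4%) lay in 43, 13 and 14 cells with at least 100 such UMIs. Without those cells, macrophage-like *Apoe* was 592, 1212 and 746 CPM, and *APOE2* stood to *APOE3* at a log2 ratio of -1.03. In fibroblast-like cells smooth muscle markers summed to 4003, 5650.2 and 5137 CPM and macrophage markers to 30.2, 16.6 and 20.9 CPM. Without cells rich in smooth muscle markers, fibroblast-like *Apoe* was 258, 542 and 347 CPM and the ratio -1.07. The differences in both classes were as large without these cells. The 7 erythroid markers summed to 1805, 32.4 and 72.8 CPM in macrophage-like cells, with 1, 3 and 3 of them at 0, and to 772, 10.7 and 315 CPM in fibroblast-like cells, with 0, 2 and 0 at 0. In both classes the sum was thus lowest in *APOE3*, the library with the highest *Apoe*. The high sums came from few cells with at least 100 such UMIs. In *APOE2*, 4 macrophage-like cells held 96.4% of the erythroid marker UMIs of their class, and 9 fibroblast-like cells 94.1%. In *APOE4*, 4 fibroblast-like cells held 86.5%. Without cells that held at least 3 erythroid marker UMIs, *Apoe* was 538, 1079 and 633 CPM in macrophage-like cells, an *APOE2* to *APOE3* ratio of -1.01. In fibroblast-like cells it was then 253, 522 and 344 CPM, a ratio of -1.04. In smooth muscle-like cells fibroblast markers summed to 1128, 672 and 676 CPM and macrophage markers to 14.5, 5.26 and 9.39 CPM, and their part in the *Apoe* level was not tested.

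Macrophage-like cells were also divided by foam cell genes and resident genes, a split of a continuous range chosen with results known; 5, 1 and 1 cells lay within 2 UMIs of the dividing line between the lists. Where resident genes were higher, *Apoe* reached 832 (791 to 874), 1382 (1302 to 1465) and 880.2 (821 to 943) CPM in 174, 71 and 74 cells. Cells low in both lists held 249.9 (225 to 277), 465 (400.0 to 538) and 246 (202 to 297) CPM, so the *APOE3* library was the highest in both subsets. The intervals of *APOE2* and *APOE4* overlapped in both. No order of *APOE2* and *APOE4* can thus be read within either subset, unlike over all macrophage-like cells. Foam genes were higher in 61 cells of *APOE2*, with 440 CPM, but in only 1 cell of *APOE3* and 3 of *APOE4*.

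The 2 fibroblast-like clusters differed in *Apoe*. The large cluster, led by the complement gene *C7*, *Inmt* and *Svep1*, held 265, 581 and 369 CPM. The small cluster, led by *Pla1a*, *Dact2* and *Dpp4*, held 27.4, 39.3 and 22.9 CPM. These levels lay below those of T lymphocyte-like cells, 61.7, 90.7 and 58.8 CPM, which served as background, so no level of *Apoe* above background can be read in the small cluster. In the large cluster *APOE2* stood to *APOE3* at a log2 ratio of -1.13 (-1.19 to -1.07); in the small one it was -0.52 (-1.32 to 0.26), from 25 and 36 UMIs, with an interval that spanned 0. *Lrp1* did not follow this split, at 563, 682 and 563 CPM in the large cluster against 653, 542 and 550.3 in the small one. *Vldlr* was higher in the small cluster, with 51.5, 84.0 and 57.7 CPM against 26.3, 42.3 and 35.2 in the large one. These clusters were singled out after their values were seen.

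Among the 9 smooth muscle-like clusters, *Apoe* was highest in one led by *Fgf12*, *Dlx6* and *Prss12*. This cluster kept all 10 smooth muscle markers, and 2 of 5 pericyte markers (*Rgs5* and *Kcnj8*) were raised in it. It held 320.4, 357 and 331 CPM, and its log2 ratio over the other smooth muscle-like cells was 0.98 (0.90 to 1.06), 1.18 (1.08 to 1.28) and 1.12 (1.04 to 1.20). *Vldlr* in the same cluster was lower than in the other smooth muscle-like cells, with log2 ratios of -0.71 (-0.90 to -0.52), -1.0 (-1.30 to -0.71) and -0.84 (-1.05 to -0.63). The order of the libraries varied between clusters. A cluster led by *Chad*, *Spp1* (osteopontin) and *Vcam1* held 263, 196 and 181 CPM of *Apoe*, with a log2 ratio of *APOE2* to *APOE3* of 0.42 (0.34 to 0.51), whereas a cluster led by *Tnnt2* and *Hand2* held 125, 195 and 164 CPM, with a ratio of -0.65 (-0.73 to -0.56). Over all 9 clusters this ratio ran from -0.65 to 0.42 and was below 0 in 3. The small difference over all smooth muscle-like cells thus stood beside clusters that differed in both directions. The libraries also differed in their mix of clusters, with 2026, 422 and 349 cells in the *Tnnt2* and *Hand2* cluster. The part of this mix in the difference was not tested.

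**Figure D3:**
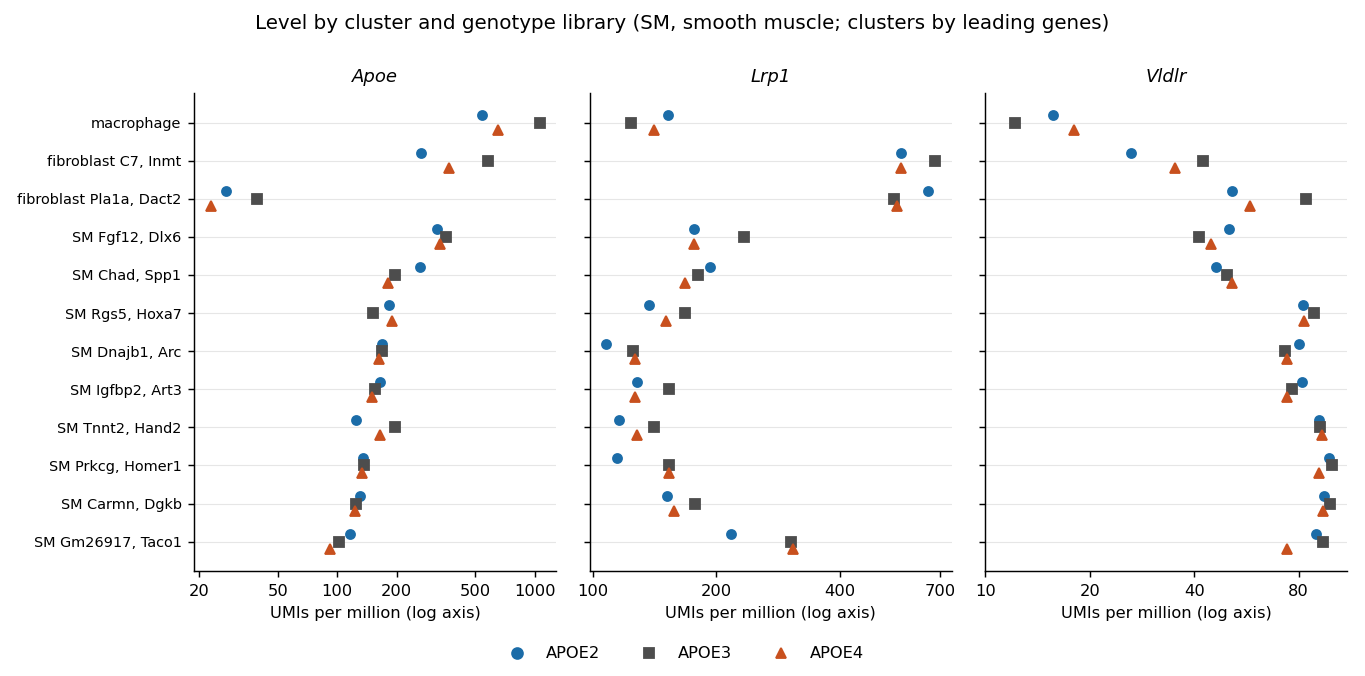
Level of *Apoe*, *Lrp1* and *Vldlr* in CPM (log axis) in the macrophage-like cluster, the 2 fibroblast-like clusters and the 9 smooth muscle-like clusters (SM, with their leading genes), 1 point per library. The small fibroblast-like cluster has the lowest *Apoe* points (22.9 to 39.3), while both fibroblast-like clusters lie far to the right of the others in *Lrp1*.

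*Apoc1*, whose gene lies next to *Apoe* and which macrophages of mice are known to express, was close to the limit of detection. Its UMIs over all cells numbered 62 with *APOE2*, 26 with *APOE3* and 28 with *APOE4*. Fibroblast-like cells held 39, 23 and 23 of these, or 2.66 (1.89 to 3.64), 2.73 (1.73 to 4.09) and 2.12 (1.34 to 3.18) CPM, and these intervals overlap. Macrophage-like cells held 12, 2 and 0 UMIs; a count of 0 is compatible with up to 3 UMIs, and at such counts no order of *APOE3* and *APOE4* can be read. The 12 macrophage-like UMIs of *APOE2* came to 2.64 (1.37 to 4.62) CPM, beside 2.66 (1.89 to 3.64) in fibroblast-like and 0.0163 (0.00197 to 0.0588) in smooth muscle-like cells of that library. In the *APOE2* library 39 of the 62 UMIs were fibroblast-like (62.9%), in *APOE3* 23 of 26 (88.5%) and in *APOE4* 23 of 28 (82.1%).

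*Lrp1*, a large endocytic receptor that clears remnants and many matrix proteins, was highest in fibroblast-like cells in these data. Its level there was 569 (557 to 581) CPM with *APOE2*, 667 (649 to 684) with *APOE3* and 562 (548 to 577) with *APOE4*. Smooth muscle-like cells held 137 (135 to 139), 159 (157 to 162) and 146 (144 to 148) CPM and macrophage-like cells 153 (142 to 165), 124 (105 to 145) and 141 (122 to 161) CPM, ranges that overlap. Without cells rich in smooth muscle markers the macrophage-like level was 154, 107 and 148 CPM. The fibroblast-like level exceeded the smooth muscle-like level by a log2 ratio of 2.05 (range over libraries 1.95 to 2.07). After thinning to 1000 UMIs, an *Lrp1* UMI was found in 42.2%, 48.2% and 42.2% of fibroblast-like cells. The thinned share was 12.9%, 15.6% and 14.2% in smooth muscle-like cells, whereas T lymphocyte-like cells showed 4.0%, 0% and 1.82%. By summed UMIs the gap was smaller. T lymphocyte-like cells gave 0.546%, 0.134% and 0.313% of *Lrp1* UMIs, in 0.857%, 0.344% and 0.966% of all UMIs. Smooth muscle-like cells gave 56.7%, 62.7% and 66.1% of *Lrp1* UMIs, in 73.1%, 77.2% and 82.2% of all UMIs. Without thinning the fibroblast-like share was 96.4%, 99.2% and 96.5%, and that of T lymphocyte-like cells 18.8%, 30.4% and 17.1%, and the median fibroblast-like cell had 10608, 11309 and 9878 UMIs.

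Between genotypes, *Lrp1* was slightly lower in *APOE2* than in *APOE3* in fibroblast-like cells, with a log2 ratio of -0.23 (-0.28 to -0.18), and in smooth muscle-like cells, with -0.22 (-0.25 to -0.19). It was also lower in 8 of the 9 smooth muscle-like clusters, where the ratio ran from -0.49 to 0.09. *APOE4* to *APOE3* gave -0.25 (-0.30 to -0.19) in fibroblast-like and -0.13 (-0.16 to -0.09) in smooth muscle-like cells. The median ratio over all genes in this contrast was -0.10 in fibroblast-like and -0.08 in smooth muscle-like cells. For *APOE2* to *APOE3* these medians were -0.02 and 0.05. In macrophage-like cells *APOE2* was the higher library, with a ratio to *APOE3* of 0.30 (0.05 to 0.56). All of these ratios are under 2-fold. Within the macrophage-like subsets, *Lrp1* was 136, 130 and 133 CPM where resident genes were higher. Cells low in both lists held 132, 110 and 169 CPM. The 61 *APOE2* cells with higher foam genes held 208 (183 to 237) CPM, and *APOE3* had only 1 such cell.

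The endothelial-like cluster must be read with its markers in view. Its 9 endothelial markers, *Cdh5* and *Pecam1* among them, gave a median of 21, 0 and 3 UMIs per cell, so that the median cell in *APOE3* held none. *Lrp1* in this cluster was 58.9 (46.6 to 73.4) CPM with *APOE2*, 226 (165 to 302) with *APOE3* and 58.6 (29.3 to 105) with *APOE4*. The *APOE3* library was the highest, with log2 ratios to it of -1.94 (-2.49 to -1.38) in *APOE2* and -1.95 (-3.05 to -0.97) in *APOE4*. In the 114, 12 and 20 cells with at least 3 endothelial marker UMIs, *Lrp1* was 22.5, 51.5 and 7.77 CPM, from 28, 6 and 1 UMIs. *Apoe* in these marked cells was 258, 197 and 272 CPM. With classes taken from the markers of each single cell in place of its cluster, *Lrp1* was 118, 41.5 and 50.5 CPM, with *APOE2* now the highest. No order of the libraries in endothelial *Lrp1* therefore holds across these settings.

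*Vldlr*, which binds triglyceride-rich particles that carry apolipoprotein E, was highest in smooth muscle-like cells. It stood there at 81.1 (79.5 to 82.7) CPM with *APOE2*, 81.1 (79.3 to 82.9) with *APOE3* and 78.1 (76.4 to 79.8) with *APOE4*. Smooth muscle-like cells gave 85.0%, 84.0% and 90.2% of its UMIs, beside 73.1%, 77.2% and 82.2% of the UMIs of all genes. The log2 ratios between genotypes there were 0.00 (-0.04 to 0.04) for *APOE2* to *APOE3*, -0.05 (-0.10 to -0.01) for *APOE4* to *APOE3* and -0.06 (-0.10 to -0.01) for *APOE4* to *APOE2*. The smooth muscle-like levels of the libraries thus lay close together. Fibroblast-like cells held 27.8 (25.2 to 30.7) CPM with *APOE2*, 46.8 (42.3 to 51.7) with *APOE3* and 37.2 (33.6 to 41.0) with *APOE4*. The ratios there, in the same order, were -0.75 (-0.95 to -0.55), -0.33 (-0.54 to -0.13) and 0.42 (0.21 to 0.62), the same order of libraries as for *Apoe*. Fibroblast-like cells also held smooth muscle markers, and their part in this *Vldlr* level is not given here. Macrophage-like cells held 71, 15 and 26 UMIs, of which 9, 0 and 2 were left once cells with at least 100 smooth muscle marker UMIs were taken out. Most *Vldlr* UMIs of this class were thus in the few cells that also held many smooth muscle marker UMIs.

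*Lrp8*, also known as apolipoprotein E receptor 2 and best known as a reelin receptor in brain, was rare. Smooth muscle-like cells had 3.51 (3.18 to 3.85), 3.50 (3.13 to 3.89) and 3.72 (3.36 to 4.11) CPM, and the 3 intervals overlapped. T lymphocyte-like cells stood higher, at 12.5 (7.40 to 19.7), 18.6 (8.04 to 36.7) and 12.4 (6.95 to 20.5) CPM, though from only 18, 8 and 15 UMIs. Among smooth muscle-like clusters the *Chad* and *Spp1* cluster was higher, at 8.10, 5.81 and 6.96 CPM and log2 ratios over the other smooth muscle-like cells of 1.49 (1.18 to 1.80), 0.83 (0.36 to 1.27) and 1.02 (0.60 to 1.43). The *Lrp8* intervals over the other smooth muscle-like cells stayed above 0 in each library. This was not particular to that cluster. A smooth muscle-like cluster led by *Gm26917* and *Taco1*, low in depth, held 5.09, 5.50 and 8.19 CPM of *Lrp8*. In *APOE4* it thus stood above the *Chad* and *Spp1* cluster.

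*Scarb1* was highest in the endothelial-like cluster. It stood there at 46.2 (35.4 to 59.3) CPM with *APOE2*, 65.3 (34.8 to 112) with *APOE3* and 107 (65.1 to 165) with *APOE4*, from 62, 13 and 20 UMIs. Macrophage-like cells held 10.8, 13 and 5.54 CPM, while fibroblast-like cells held 4.44, 6.04 and 6.08. Smooth muscle-like cells were the lowest of the 4 classes, at 2.88, 2.98 and 3.22. The median log2 ratio of endothelial-like over smooth muscle-like cells was 4.45 (range over libraries 4.0 to 5.05). The upper end of this range is the *APOE4* value, which rested mostly on 1 cell, as the next sentence gives. Within the endothelial-like cluster the ratio of *APOE4* to *APOE2* was 1.21 (0.40 to 1.95), but 14 of the 20 UMIs in *APOE4* came from 1 cell with many smooth muscle marker UMIs. With cells of at least 100 such UMIs left out of both libraries, the log2 ratio was -0.42.

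*Sort1* was the highest of the 4 classes in smooth muscle-like cells, at 37.3 (36.2 to 38.4) CPM with *APOE2*, 35.1 (34.0 to 36.3) with *APOE3* and 37.2 (36.0 to 38.4) with *APOE4*. Ratios between genotypes in this class were 0.09 (0.02 to 0.15) for *APOE2* to *APOE3*, 0.08 (0.01 to 0.15) for *APOE4* to *APOE3* and -0.00 (-0.07 to 0.06) for *APOE4* to *APOE2*. All 3 libraries thus lay close together in this class. Fibroblast-like cells held 5.87 (4.69 to 7.25), 8.41 (6.57 to 10.6) and 9.68 (7.92 to 11.7) CPM, with *APOE4* above *APOE2* by a log2 ratio of 0.72 (0.30 to 1.15). Smooth muscle markers summed to 4003, 5650.2 and 5137 CPM in fibroblast-like cells, and their part in this low *Sort1* level is not given here. The smooth muscle-like cluster led by *Gm26917* and *Taco1*, low in depth, had the most *Sort1*, 63.6, 65.6 and 69.7 CPM. It also had the most *Lrp1* of the smooth muscle-like clusters, 217, 305 and 307 CPM.

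**Figure D4:**
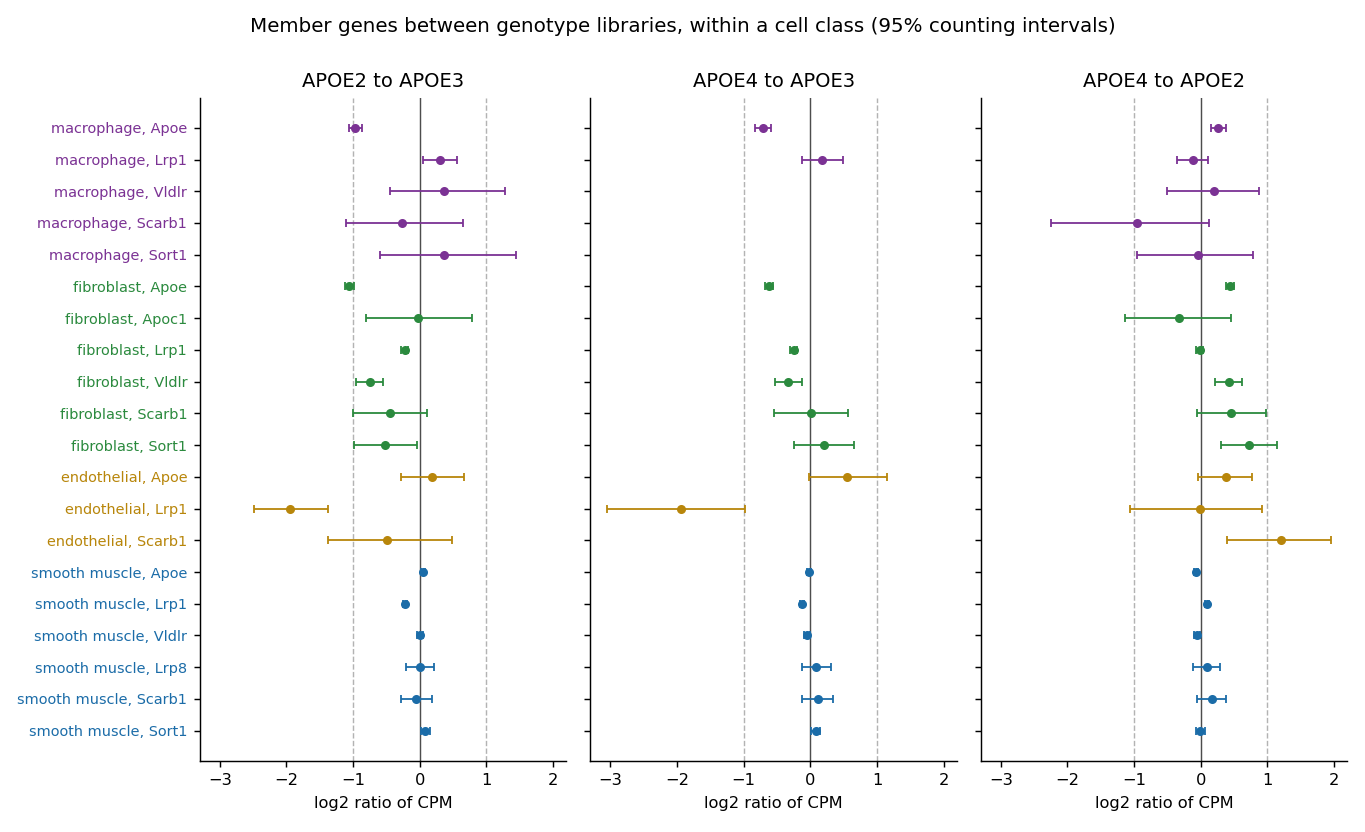
Log2 ratio of CPM between genotype libraries for each gene and cell class with at least 50 UMIs in both libraries together, with 95% intervals of counting error and dashed lines at 2-fold. *Apoe* in fibroblast-like cells lies at -1.06 for *APOE2* to *APOE3*, whereas the *Apoe*, *Vldlr* and *Sort1* points of smooth muscle-like cells lie between -0.07 and 0.09.

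Counted over the 7 genes and 4 classes, 20 pairs of gene and class had at least 50 UMIs in *APOE2* and *APOE3* together. Of these, 2 of 20 differed by at least 2-fold, *Apoe* in fibroblast-like and *Lrp1* in endothelial-like cells, both lower in *APOE2*; over all genes 5.68% of pairs did. Lower by that much were 1.39% of all fibroblast-like pairs and 5.38% of all endothelial-like pairs. For *APOE4* to *APOE3*, 1 of 15 pairs passed (*Lrp1* in endothelial-like cells, lower in *APOE4*), against 4.06% of all pairs and 4.96% of endothelial-like pairs in that direction. For *APOE4* to *APOE2*, 1 of 20 passed (*Scarb1* in endothelial-like cells, higher in *APOE4*), against 7.16% of all pairs and 4.36% of endothelial-like pairs in that direction. From so few pairs nothing particular to the members can be read, and 3 of the 4 lie in the endothelial-like cluster described above. The median log2 ratio of the pairs was -0.13, -0.02 and 0.09 in the 3 contrasts, and that of all genes 0.01, -0.08 and -0.08. In smooth muscle-like cells the median over all genes of *APOE4* to *APOE2* was -0.12, larger in size than the ratios of *Apoe*, *Vldlr* and *Sort1* there.

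Genes with a pattern like that of a member were listed as a description, over the 12 sums of 4 classes by 3 libraries, which share libraries and depth. Among 5995 genes, *Rnf130* (Pearson's r = 0.951), *Naaa* (0.943), an acid amidase of lysosomes, and *Snx29* (0.942) were the most like *Apoe*. For *Lrp1* they were *Clec11a* (0.958), *Gdf10* (0.949) and *Hhip* (0.940). For *Vldlr* they were *Tcea3* (0.947), *Fibin* (0.945) and *Anapc13* (0.924), and for *Scarb1* *Ctbp2* (0.98), *Gbp4* (0.977) and *Myo18a* (0.974). The last 3 were highest in the same sum as *Scarb1*, the endothelial-like cells of *APOE4*, where 14 of the 20 *Scarb1* UMIs came from 1 cell. *Apoc1*, *Lrp8* and *Sort1* did not reach the level of 50 CPM needed for this list.

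Of the 52 pathway genes, 19 reached 100 CPM in at least 1 class: 7 of 14 ligands and lipoprotein proteins, 3 of 15 receptors, 4 of 12 adaptors and regulators, 3 of 6 proteoglycans and 2 of 5 neighbours of the *Apoe* locus. Past 2-fold were 16 of 137 pairs for *APOE2* to *APOE3*, 5 of 108 for *APOE4* to *APOE3* and 20 of 135 for *APOE4* to *APOE2*, beside 5.68%, 4.06% and 7.16% of all pairs. Among the ligands and lipoprotein proteins, *Apod*, another lipid-carrying apolipoprotein, was 496, 151 and 124 CPM in fibroblast-like cells, higher in *APOE2*, whereas *Apoe* was lowest in *APOE2*. *Lpl*, lipoprotein lipase, was 239.8, 127 and 103 CPM in macrophage-like cells and 45.0, 26.9 and 14.8 in smooth muscle-like cells, again with *APOE2* the highest library. *Gpihbp1*, which carries the lipase across capillary endothelium, was 357, 90.4 and 171 CPM in endothelial-like cells. Those cells held a median of 21, 0 and 3 endothelial marker UMIs per cell, and only 33 came from *APOE3* and 37 from *APOE4*. The part of this in the *Gpihbp1* difference was not tested.

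*Pltp*, phospholipid transfer protein, was 539.9, 345 and 347 CPM in macrophage-like cells, and *Lipa*, lysosomal acid lipase, 172, 113 and 103; neither gene had *APOE3* highest as *Apoe* did. *Clu*, clusterin, stood at 802, 885 and 766 CPM in smooth muscle-like and 2500.4, 1397 and 1338 in endothelial-like cells. The endothelial-like values of *Clu* have the same limit as those of *Gpihbp1*. *Thbs1*, the secreted thrombospondin 1, was 28.6, 5.10 and 11.6 CPM in fibroblast-like cells. Its highest value in any class compared was 131 CPM, in the few endothelial-like cells of *APOE3*. Among receptors, *Sorl1*, a sorting receptor related to sortilin, was 111, 166 and 166 CPM in smooth muscle-like cells. *Lrp6*, a Wnt coreceptor, was 130.5, 178 and 137 CPM in fibroblast-like cells. *Scarb2*, a lysosomal membrane protein, was 176, 176 and 156 in the same class. For *Lrp6*, as for *Lrp1*, the *APOE3* library was thus the highest in this class.

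Among adaptors and regulators, *Lrpap1*, the chaperone that keeps LRP1 free of ligands during synthesis, was 189.7, 259 and 219 CPM in fibroblast-like cells and 148, 166 and 137 in smooth muscle-like cells. It was thus highest in *APOE3* in both classes, as *Lrp1* was. *Dab2*, an endocytic adaptor, was 555, 713 and 652 CPM and *Mylip*, a ubiquitin ligase that degrades lipoprotein receptors, 161, 90.7 and 139 CPM in macrophage-like cells. *Snx17*, which recycles LRP1, was 104, 112 and 93.5 CPM in smooth muscle-like cells. Among the proteoglycans, the syndecan *Sdc2* was 266, 264 and 267 CPM in fibroblast-like cells. *Sdc4*, also a syndecan, was 417, 423 and 599 CPM in macrophage-like cells, and *Hspg2*, perlecan, 145, 189 and 180.3 CPM in smooth muscle-like cells. Of the neighbours of the *Apoe* locus, *Bcam*, a laminin receptor, was 252, 393 and 336 CPM in smooth muscle-like cells and *Relb*, a subunit of NF-κB, 94.3, 106 and 141 CPM in macrophage-like cells. *Bcam* thus ran in the order *APOE3*, *APOE4*, *APOE2*, and *Relb* in the order *APOE4*, *APOE3*, *APOE2*.

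Over 12 other choices of cells, clusters and scaling, the log2 ratio of *Apoe* between *APOE2* and *APOE3* in fibroblast-like cells ran from -1.08 to -0.98 and stayed past 2-fold in 10 of them. In macrophage-like cells it ran from -1.14 to -0.88, on both sides of 2-fold.

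**Figure D5:**
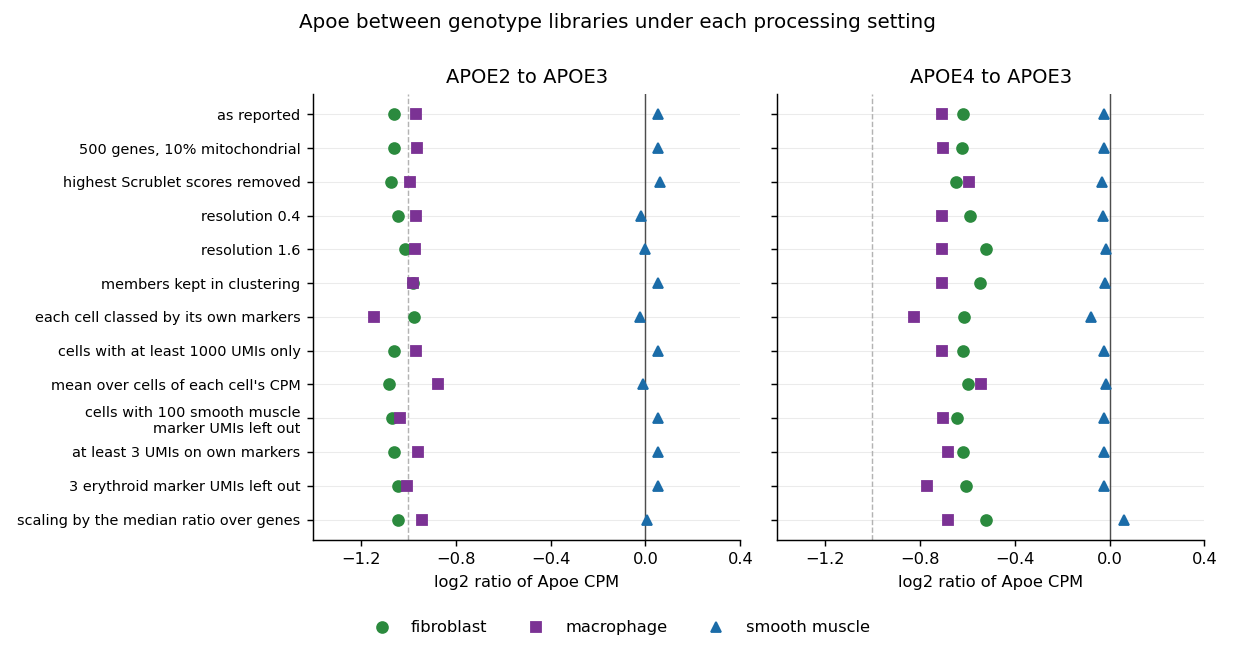
Log2 ratio of *Apoe* CPM of *APOE2* to *APOE3* and of *APOE4* to *APOE3* in 3 cell classes, as reported and under 12 other choices of cells, clusters and scaling (vertical axis), with a dashed line at a 2-fold lower level. The fibroblast-like points of *APOE2* to *APOE3* stay between -1.08 and -0.98, and the smooth muscle-like points stay near 0 on both sides of it.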

How the data were processed

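Aortic cells of 18 mice were pooled by genotype and sequenced as 3 droplet (10x Genomics) libraries. Per the file headers and the submitters' processing notes, the authors made the deposited UMI count matrices with Cell Ranger 7.0.1 and mm10; the deposited counts are not normalized. Counts of 26757 cells (at least 200 genes, under 20% mitochondrial UMIs) were summed by class and library and divided by their total (CPM, counts per 1000000 UMIs). Reads were aligned to the mouse genome, so *Apoe* counts depend on how much of the human transcript it captures.

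Cells were normalized with sctransform 0.4.2 and integrated by library and clustered with Seurat 5.3.0 (R 4.3.3; 3000 features less 23 member and pathway genes, 30 components, resolution 0.8). A cluster was named when at least 3 markers of a list were raised 2-fold over the other cells and found in 10% of its cells. Smooth muscle-like clusters instead held at least 8 of 10 markers at 50% or more of their level over all cells. This rule was set after the clusters were seen. Clusters whose leading genes or depth went against a name stayed unnamed. So did clusters that met the smooth muscle rule and also had at least 3 raised markers of another list. One of these, with 1104 cells and 7 of 10 fibroblast markers raised, held 178, 215 and 205 CPM of *Apoe*. The 7 genes and all lists were chosen with earlier results of these data known. Named pathway genes are those at 100 CPM or more in any class of any library, and genes like a member are the 3 with the highest Pearson correlation of log2(CPM + 1). Some genes of the lists are not reported here.

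Levels have exact Poisson, shares exact Clopper-Pearson and ratios exact conditional binomial 95% intervals (scipy 1.17.1, Python 3.11.15), which cover counting error only; no test was possible with 1 library per genotype. Ratios required 30 cells in each library and 50 UMIs in the pair. Scrublet (scanpy 1.11.5) marked only 3 cells as doublets and was judged not to have worked, so doublets were kept, and removing the highest 5% of scores was an alternative. The ratio intervals were tested on simulated counts with counting error only, the error that they assume. Clustering, cluster naming and thinning were not tested in this way.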

Additional observations from a re-analysis of the deposited data

How the results depend on the processing

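No paired analysis was possible because each genotype is 1 library and the samples carry no replicate numbers; no replicate could be left out either. The log2 ratio of *Apoe* in macrophage-like over smooth muscle-like cells, 2.02 as the median of the libraries, ran from 1.98 to 2.25 over 11 alternatives. The count of member and class pairs past 2-fold rested on few pairs. For *APOE2* to *APOE3*, 2 of 20 became 1 of 19 at resolution 0.4, 1 of 20 with the members kept among the clustering features, 4 of 22 with each cell classed by its own markers, 4 of 28 with no minimum on UMIs and 4 of 20 at a 1.5-fold threshold; it was 3 of 18 without cells of at least 100 smooth muscle marker UMIs, 3 of 20 without cells of at least 3 erythroid marker UMIs and 3 of 20 with the mean over cells. *Apoe* in macrophage-like cells passed 2-fold in the first and second of these 3 (-1.03 and -1.01). For *APOE4* to *APOE3*, 1 of 15 became 0 of 14 with at least 500 genes and under 10% mitochondrial UMIs, 0 of 14 at resolution 0.4, 0 of 15 at resolution 1.6, 6 of 26 with no minimum, 3 of 15 at 1.5-fold and 0 of 14 among cells with at least 3 UMIs on their own markers. For *APOE4* to *APOE2*, 1 of 20 became 4 of 22 with each cell classed by its own markers, 2 of 20 with the mean over cells, 4 of 28 with no minimum and 3 of 20 at 1.5-fold. With own-marker classing *Lrp1* in endothelial-like cells reversed for *APOE2* to *APOE3* (log2 ratio 1.50), and without cells of at least 100 smooth muscle marker UMIs *Scarb1* in endothelial-like cells reversed for *APOE4* to *APOE2* (-0.42). The cause was not tested. The alternatives on smooth muscle, erythroid and own-marker UMIs were chosen after seeing the data. Per alternative, between 46 of 55 (the mean over cells and scaling by the median ratio over genes) and 54 of 55 ratios kept their sign. Depth limits *Apoc1*, *Lrp8* outside smooth muscle-like cells and every endothelial-like value of *APOE3* and *APOE4*, where a few UMIs or 1 cell set a level.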
